A study of Mus musculus with 57 samples.

Results

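The 7 genes described here were Chchd10, Gm867, Chchd2, Chchd3, Chchd4, Chchd6 and Immt, taken by symbol from the 52853 genes of the count tables. All 7 were measured in all 3 tables and passed the low-count filter of every comparison. They were followed in adipose tissue of mice homozygous for the R707W change in Mfn2, which encodes mitofusin 2, a GTPase that fuses outer mitochondrial membranes. Knock-in (KI) and wild-type (WT) littermates were male, on a C57BL/6J background, from a colony that goes back to 1 founder, and the KI allele also carries a silent change that creates a restriction site. From 5 weeks of age they received chow or a high-fat diet (HFD, 45% of kcal from fat) for 6 months. RNA was sequenced from inguinal white adipose tissue (WAT) on chow (7 WT and 6 KI mice), inguinal WAT on HFD (8 and 8) and brown adipose tissue (BAT) on HFD (6 and 6). The change is present in every cell of the KI mice, so the tables do not separate what arises within adipocytes from what arises elsewhere. It is not stated if the 2 depots on HFD were taken from 1 set of animals. Total counts ran from 8042591 to 11720458 in BAT and in inguinal WAT on chow, and from 17572752 to 25680411 in inguinal WAT on HFD, where 2 technical libraries had been made per mouse.

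The Chchd genes are named after a coiled-coil-helix-coiled-coil-helix fold with paired cysteines, and their proteins act in or next to the space between the mitochondrial membranes. The product of Immt, which lacks this fold, is anchored in the inner membrane and reaches into the same space. Immt, Chchd3 and Chchd6 encode subunits of the MICOS complex, which holds the necks of the cristae together and ties the inner membrane to the outer one. Chchd4 encodes the receptor that traps and oxidises incoming cysteine-rich proteins. Chchd10 and its paralogue Chchd2 encode small partner proteins found near cristae junctions, and variants of both genes are known from inherited neurological and muscle disease in humans. Gm867 is a predicted protein-coding gene that runs into the end of Chchd10 from the opposite side. Chchd10 and Gm867 entered this group because of their difference between KI and WT mice in inguinal WAT. In every comparison that uses inguinal WAT they are therefore described without a test. They were tested between KI and WT mice in BAT only. That test may not be independent of the choice either, since earlier results of these data were known.

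Chchd10 (ENSMUSG00000049422) lies on the plus strand at chr10:75933130-75937747 of GRCm38, and Gm867 (ENSMUSG00000050157) on the minus strand at chr10:75937723-75940672. The tail ends of the 2 genes share 25 exonic bases (chr10:75937723-75937747). On its other side Chchd10 meets Mmp11, which encodes a secreted matrix metalloproteinase and runs on the minus strand at chr10:75923222-75936496. Mmp11 and Chchd10 share 155 exonic bases (chr10:75936291-75936445), because a transcript of Mmp11 starts inside Chchd10. The strand setting of the counting is not given in the sources used here, so reads of these overlapping genes cannot be told apart with certainty, and the 3 are given side by side throughout. The remaining members lie elsewhere. Chchd2 (ENSMUSG00000070493) is at chr5:129881156-129887470, while Immt (ENSMUSG00000052337, chr6:71831331-71877388), Chchd3 (ENSMUSG00000053768, chr6:32790976-33060260), Chchd6 (ENSMUSG00000030086, chr6:89383146-89595652) and Chchd4 (ENSMUSG00000034203, chr6:91462172-91473546) are all on chromosome 6.

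The 250 bases upstream of the Chchd10 start are shown because the counts of Chchd10 and Mmp11 moved together in these samples. The stretch lies between the first base of Chchd10 and the start of Mmp11 in the RefSeq table, and the Mmp11 transcript that starts inside Chchd10 runs across it. The sequence is from RefSeq (GRCm38.p6, chr10:75932880-75933129, plus strand, 5′ to 3′). Capitals mark the 8 letters TGATGCAA, the core of a composite element that is known to be bound by ATF4 together with C/EBP factors. ATF4 is the main transcription factor of the integrated stress response.
Chchd10 upstream: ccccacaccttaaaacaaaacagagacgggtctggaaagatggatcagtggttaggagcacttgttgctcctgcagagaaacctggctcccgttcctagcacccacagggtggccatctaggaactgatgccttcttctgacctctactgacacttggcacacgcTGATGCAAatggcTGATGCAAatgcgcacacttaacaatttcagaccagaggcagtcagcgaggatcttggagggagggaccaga
TGATGCAA occurred at chr10:75933045-75933052 and again at chr10:75933058-75933065, 5 bases apart. The matches lie 85 and 72 bases before the RefSeq start of Chchd10, the first base of its longest annotated transcript. Other annotated transcripts of Chchd10 start further along, at chr10:75935573 and chr10:75937220. The RefSeq start of Mmp11 lies 627 bases from that of Chchd10 on the other strand, with the matches 550 and 563 bases before the Mmp11 start. The letters were searched on both strands (TGATGCAA and TTGCATCA) after the Chchd10 sequence had been seen. In windows of 300 bases from 250 before to 50 after the start, 294 of 32851 mouse promoters (0.895%) held at least 1 match. Windows with 2 matches belonged to 2 symbols, Chchd10 and Slc7a11 (0.00609% of windows). Since the Chchd10 sequence had been seen first, this share does not measure how unusual Chchd10 is. The windows of Gm867, Mmp11, Smarcb1, Chchd3, Chchd4, Chchd6 and Immt held 0. A match of letters is not a measured binding site.

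Levels are counts scaled to library size (CPM) after one TMM scaling of all 41 samples, and fold changes come from fits within a table. Chchd10 and Gm867 differed more between the 6 groups than the other 5 members. In WT inguinal WAT it stood at 20.2 to 53.7 CPM on chow (median 38.7, n = 7) and at 27.1 to 71.9 CPM on HFD (median 46.1, n = 8), and these ranges overlapped. In KI inguinal WAT it stood at 175 to 391 CPM on HFD (median 287, n = 8) and at 603 to 2224 CPM on chow (median 896, n = 6). In BAT, it was at 1482 to 2200 CPM in WT mice (median 1846, n = 6) and at 2983 to 5167 CPM in KI mice (median 3559, n = 6). In ascending order the groups were therefore WT inguinal on chow, WT inguinal on HFD, KI inguinal on HFD, KI inguinal on chow, WT BAT and KI BAT. Among neighbours in that order, the first pair overlapped, and so did KI inguinal on chow with WT BAT, through chow KI mouse 1 at 2224 CPM, while the other neighbouring groups did not. Gm867 followed the same order at a lower level, from a median of 3.38 CPM in WT chow through 6.54 CPM in WT HFD, 28.7 CPM in KI HFD, 93.8 CPM in KI chow and 147 CPM in WT BAT to 329 CPM in KI BAT. For Gm867, WT HFD (2.48 to 8.11 CPM) lay inside the range of WT chow (2.42 to 11.8 CPM), and the ranges of KI chow (55.8 to 253 CPM) and WT BAT (120 to 203 CPM) overlapped. The plot of levels by mouse shows all members on this scale.

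**Figure D1:**
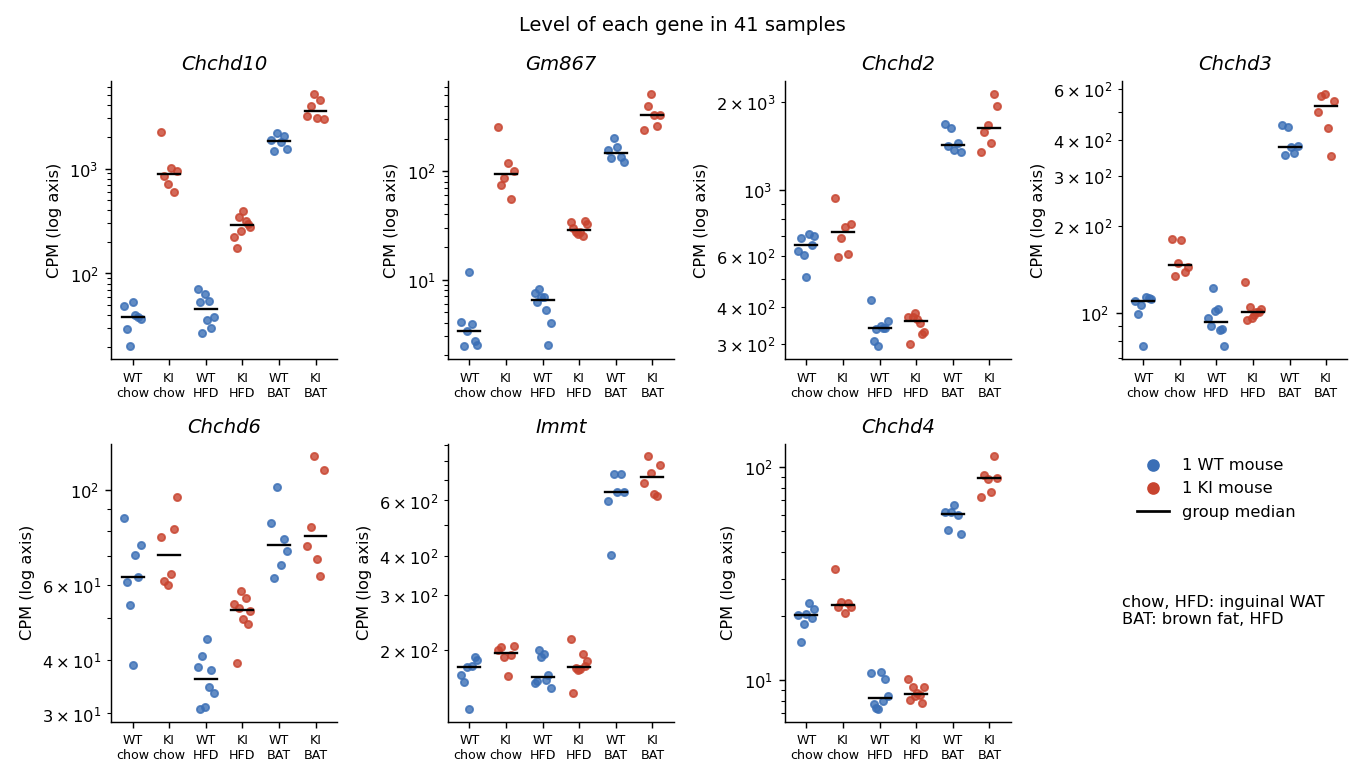
Level of each gene (CPM, log axis) in each of the 41 samples, 1 panel per gene, with WT mice in blue, KI mice in red and a line at the group median. Chchd10 spans 20.2 to 5167 CPM over all samples, whereas Chchd6 spans 30.7 to 120 CPM.

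Levels were also divided by the kilobases of annotated exon. These lengths cover all annotated transcripts of a gene and can exceed those expressed, so an order of genes on this scale depends on the annotation. Per kilobase, Chchd10 was the lesser of the Chchd10 and Chchd2 pair in WT inguinal WAT. The ratio of Chchd10 to Chchd2 was 0.0482 to 0.152 on chow (median 0.0816) and 0.115 to 0.309 on HFD (median 0.195). In KI inguinal WAT the ratio was 1.43 to 3.39 on chow (median 1.84) and 0.838 to 1.54 on HFD (median 1.24). WT BAT had 1.51 to 2.04 (median 1.78), and KI BAT had 2.22 to 4.44 (median 3.23). The median of KI inguinal WAT on chow was thus close to that of WT BAT, whereas WT inguinal WAT lay below 0.31 in every mouse. In CPM, without division by length, KI inguinal WAT on HFD had medians of 287 for Chchd10 and 359 for Chchd2. In levels per kilobase, the order in WT inguinal WAT on HFD was Chchd2 (152 ± 17.1 CPM per kb), Chchd3 (33.0 ± 4.72), Chchd10 (29.8 ± 10.3), Immt (15.1 ± 1.69), Chchd6 (14.4 ± 1.95), Gm867 (4.83 ± 1.56) and Chchd4 (1.70 ± 0.290; SD, n = 8 each). Chchd3 and Chchd10, and Immt and Chchd6, did not differ beyond their SD there. In CPM the order differed, with Immt (mean 172) above Chchd3 (95.8) and Chchd10 (47.0) in the same mice. In KI BAT, Chchd10 led at 2411 ± 568 CPM per kb (SD, n = 6), followed by Chchd2 at 743 ± 131 CPM per kb.

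The KI effect in inguinal WAT is given first for the locus, as a description. On chow, the log2 fold change of KI over WT was 4.77 for Chchd10 (SE 0.330, 27.3-fold) and 4.66 for Gm867 (SE 0.460). On HFD it was 2.61 for Chchd10 (SE 0.214, 6.09-fold) and 2.34 for Gm867 (SE 0.186). With the counts of both genes summed as 1 locus the log2 fold change was 4.76 on chow and 2.58 on HFD. Both genes had no overlap between genotypes on either diet, which held for 4.22% of all genes tested on chow and 4.53% on HFD in either direction. Since both genes were chosen by this contrast, nothing is read from that share. Over the fits that left out 1 mouse, the log2 fold change of Chchd10 ran from 4.43 to 4.89 on chow and from 2.52 to 2.71 on HFD. These are bulk samples, in which a change in the number of cells that express a gene and a change in RNA per cell cannot be told apart.

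For each 100 reads of Chchd10 there were 8.44 reads of Gm867 in WT chow (range 6.73 to 21.9), 11.0 in KI chow (8.75 to 12.3), 10.8 in WT HFD (8.22 to 30.0), 11.0 in KI HFD (7.01 to 17.0), 8.63 in WT BAT (6.61 to 9.33) and 10.1 in KI BAT (5.82 to 11.1). These ranges overlapped between genotypes in each table, over a span of Chchd10 levels from 20.2 to 5167 CPM. Mmp11 showed another picture. Its reads per 100 of Chchd10 were 137 in WT chow (112 to 160) against 83.6 in KI chow (76.1 to 85.3), and 143 in WT HFD (114 to 233) against 86.4 in KI HFD (72.7 to 93.2). In inguinal WAT the WT and KI ranges did not overlap, and both KI medians lay near those of BAT, 83.2 in WT (79.5 to 85.9) and 79.2 in KI mice (77.3 to 82.7).

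Among the genes within 50 kb, Mmp11, which is also described without a test in inguinal WAT, had a log2 fold change of 4.01 on chow (SE 0.301) and 1.82 on HFD (SE 0.208). Smarcb1, the next gene on that side, encodes a core subunit of the BAF chromatin remodelling complex. It rose in KI inguinal WAT on HFD from a range of 52.3 to 71.2 CPM (median 61.8) in WT to 67.9 to 88.8 CPM (median 81.2) in KI mice, by 0.35 on the log2 scale (SE 0.0709, edgeR adjusted p = 0.00152). On chow (0.42, SE 0.108, edgeR adjusted p = 0.0278) and in BAT (0.49, SE 0.122, edgeR adjusted p = 0.0244) its log2 fold change was of like size without passing the threshold. Derl3, a gene of protein removal from the endoplasmic reticulum, had log2 fold changes of -0.22 on HFD (SE 0.229) and -0.12 on chow (SE 0.732) at medians of 0.950 to 2.12 CPM, with edgeR adjusted p = 0.544 and 0.941, and was under the filter in BAT. Vpreb3 passed the filter only where the inguinal groups or the HFD groups were fitted together, and was not called there. The plot of the locus sets these genes side by side.

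**Figure D2:**
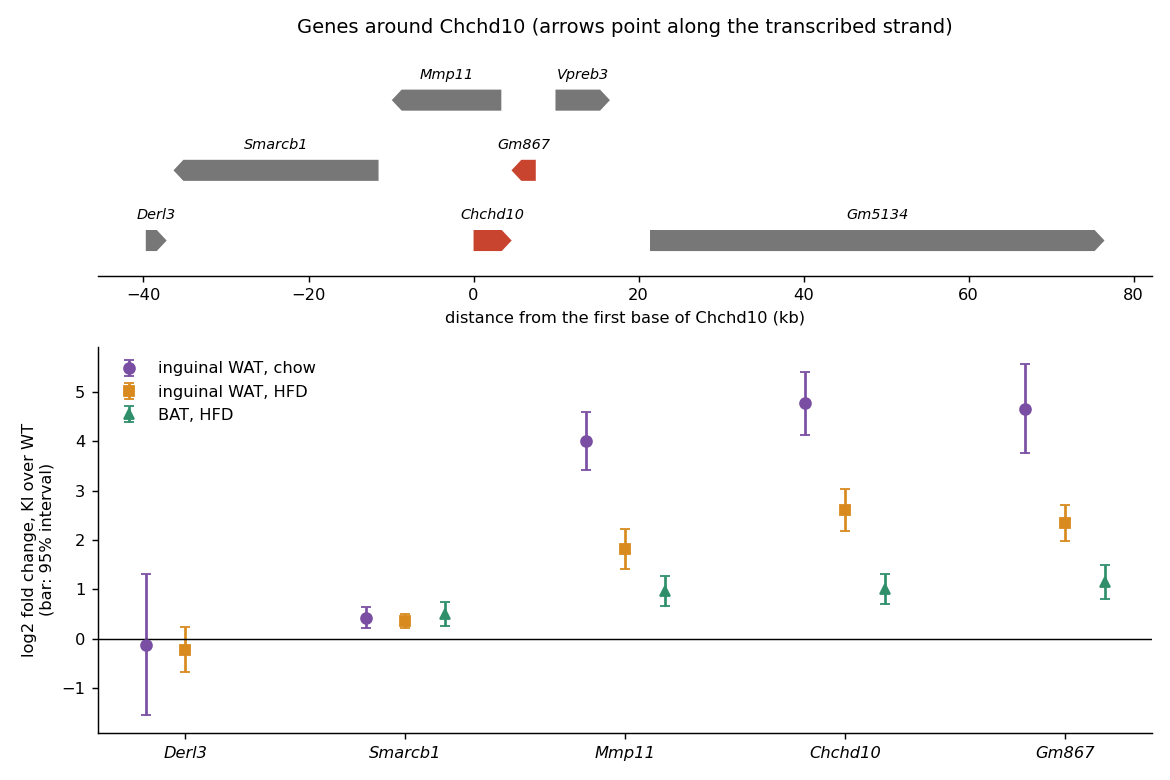
Upper panel, spans of the genes around Chchd10 by distance from its first base (kb), with arrows along the transcribed strand. Lower panel, log2 fold change of KI over WT mice for the genes that passed the filter, in inguinal WAT on chow (purple circles), on HFD (orange squares) and in BAT (green triangles), with bars of the 95% interval. Mmp11, Chchd10 and Gm867 lie between 0.96 and 4.77, and Smarcb1 between 0.35 and 0.49.

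In BAT, both genes rose in KI mice. Chchd10 and Gm867 entered through inguinal WAT, but members were chosen with earlier results of these data known. The test in BAT may therefore not be independent of that choice, and for Chchd10 and Gm867 no support is read from it. Chchd10 rose from 1482 to 2200 CPM in WT to 2983 to 5167 CPM in KI mice, with all 6 KI mice above all 6 WT mice, by 1.01 on the log2 scale (SE 0.156, 2.02-fold, edgeR adjusted p = 0.00120). Gm867 rose by 1.14 (SE 0.176, 2.21-fold, edgeR adjusted p = 0.00120), also without overlap. Mmp11 rose by 0.96 (SE 0.155, 1.94-fold, edgeR adjusted p = 0.00173), from 1242 to 1769 CPM (median 1511) in WT to 2306 to 4044 CPM (median 2864) in KI mice. Of the 7 members, 3 were called in BAT (Chchd10, Gm867 and Chchd4), where 1.83% of the 13267 genes tested were called, and Chchd10 and Gm867 are neighbours that share bases and cannot count as 2 separate genes. The same 3 members had no overlap between genotypes, as had 3.69% of all genes tested. Set side by side, the log2 fold change of Chchd10 was 4.77 in inguinal WAT on chow, 2.61 in inguinal WAT on HFD and 1.01 in BAT, while its WT median was 38.7, 46.1 and 1846 CPM in the same order.

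Skeletal muscle also expresses Chchd10, and inguinal and brown fat dissections can carry muscle or, in the inguinal depot, lymph node. Summed over 12 muscle markers, 8 libraries exceeded 1000 CPM, namely BAT WT mice 1 and 2, BAT KI mouse 6, chow KI mouse 4, HFD inguinal WT mice 1 and 2 and HFD inguinal KI mice 3 and 5. Chow KI mouse 4 stood far apart at 78491 CPM, with Chchd10 at 1004 CPM inside the range of its group. The other chow KI mice had muscle sums of 45.1 to 351 CPM and the chow WT mice 43.4 to 842 CPM. Without the muscle-rich libraries the log2 fold change of Chchd10 was 4.78 on chow, 2.63 on HFD and 1.04 in BAT. In BAT, Chchd10 then remained called (edgeR adjusted p = 0.00437), while Gm867 (1.14, edgeR adjusted p = 0.0113) did not. Lymphocyte markers exceeded 100 CPM in 5 inguinal libraries, and without these the log2 fold change of Chchd10 was 4.47 on chow and 2.76 on HFD.

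Because Chchd10 was higher in BAT than in WAT, brown adipocyte markers are given beside it. Of 9 such markers, 6 were tested in inguinal WAT. In BAT, the sum of the 9 was 12911 to 18466 CPM in WT mice (median 15795.7) and 14966 to 23342 CPM in KI mice (median 20714.5). Ucp1, the uncoupling protein that defines brown fat, had medians of 6515 CPM (WT) and 7061 CPM (KI) there. Of the 9 markers, 0 were called in BAT by edgeR, 3 had an unadjusted p below 0.05 and DESeq2 called 2. Their log2 fold changes in BAT ran from -0.04 (Otop1) to 0.99 (Kcnk3, edgeR adjusted p = 0.0171) and 1.23 (Ppargc1a, edgeR adjusted p = 0.0352). On HFD, the sum in inguinal WAT did not separate the genotypes, with 62.7 to 109 CPM in WT mice and 51.9 to 101 CPM in KI animals, and 2 markers rose (Cidea and Cox8b) while 2 fell (Otop1 and Kcnk3). Chchd10 differed 6.09-fold between the same mice. On chow the sum was 78.8 to 203 CPM in WT mice and 222 to 1125 CPM in KI animals, without overlap. Cidea and Cox8b were called higher there (2 of 6, where 3.23% of all genes tested were called). Chow KI mouse 1 had both the highest sum and the highest Chchd10 of its group. Ucp1 stayed at medians of 0.188 CPM in WT mice and 0.330 CPM in KI animals on chow, and 0.428 and 0.329 CPM on HFD, too low to pass the filter. No marker of the 9 was without counts in all mice of a group. The part of brown adipocytes in the rise of Chchd10 on either diet was not tested. Among markers of the other cell types, those called between genotypes by edgeR were lower in KI mice. On HFD they were 3 of 7 white adipocyte markers (Adipoq, Lep and Retn) and 2 of 5 fibroblast markers (Lum and Dpt). The last was 1 of 7 macrophage markers (Itgax), where 11.5% of all genes tested were called. The white adipocyte markers Plin1, Cidec, Fabp4 and Nnat were not called there. By edgeR, Retn and Dpt were called both on chow and in BAT, where 3.23% and 1.83% of all genes tested were called. DESeq2 called 3 of 7 white adipocyte markers on chow and 4 of 7 in BAT, and 2 and 3 of 5 fibroblast markers. The paper, which used DESeq2, reports lower Lep and Adipoq mRNA in KI mice in both. Of the 12, 6 and 3 muscle markers and the 7, 6 and 2 lymphocyte markers tested on HFD, on chow and in BAT, 0 were called by edgeR. An unadjusted p below 0.05 was found for 0, 5 and 1 of the muscle markers and for 0 lymphocyte markers, and DESeq2 called 1 muscle marker in BAT and 2 lymphocyte markers on HFD. Of 5 endothelial markers 0 were called by edgeR in any of the 3 tables (2, 3 and 2 with an unadjusted p below 0.05, and 1 called by DESeq2, in BAT), and 1 epithelial marker was tested, on HFD, without a call. The part of these cell types in the levels of the members was not tested. The right panel of the plot against Mmp11 and brown markers shows these sums.

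**Figure D3:**
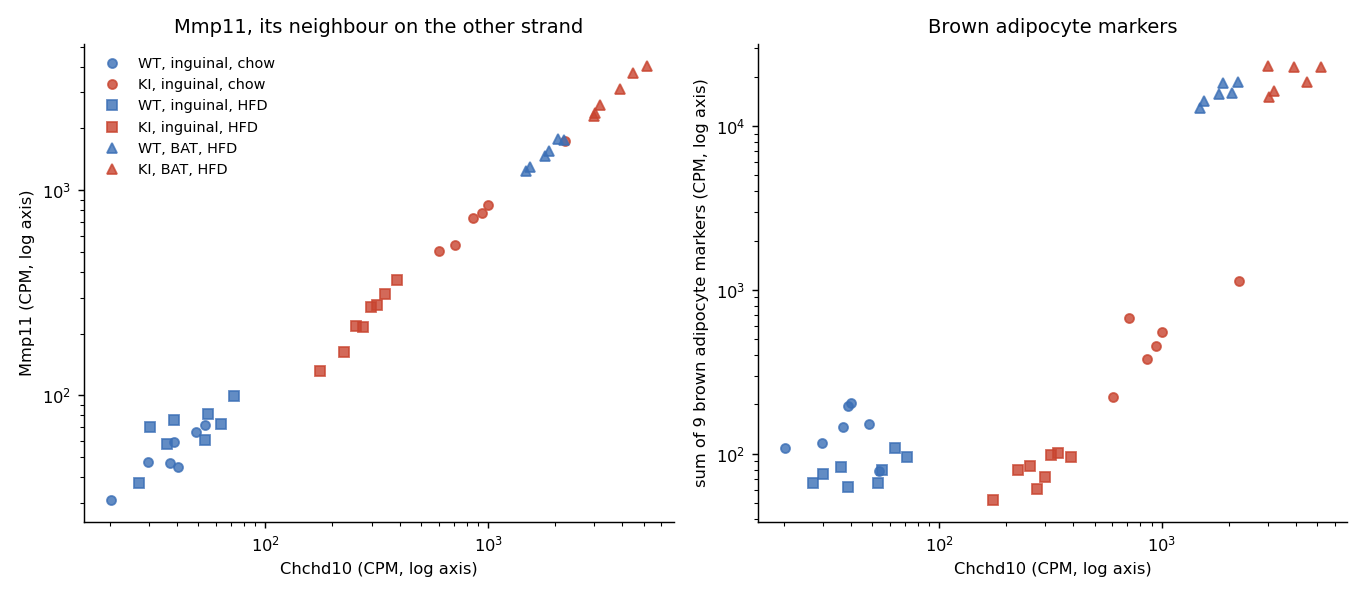
Chchd10 (CPM, log axis) against Mmp11 (left) and against the sum of 9 brown adipocyte markers (right, CPM, log axes), 1 point per sample for all 41 samples, with WT in blue and KI in red. Mmp11, whose exons overlap those of Chchd10 so that reads may be shared, follows it over the whole range. KI and WT inguinal WAT on HFD share a range of marker sums (51.9 to 109 CPM) and differ in Chchd10. Kcnk3, the largest part of these sums, was lower in KI mice, while Cidea and Cox8b were higher.

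In inguinal WAT on HFD, 1 of the 5 remaining members, Chchd6, was called, against 11.5% of the 16471 genes tested. Chchd6 encodes a MICOS subunit related to the product of Chchd3. It stood at 30.7 to 44.9 CPM in WT (median 36.2) and 39.3 to 58.0 CPM in KI mice (median 52.5, n = 8 each). Above the highest WT mouse lay 7 of the 8 KI mice. The log2 fold change was 0.50 (SE 0.0859, 1.41-fold, edgeR adjusted p = 0.000380). None of the other 4 passed the test (edgeR adjusted p = 0.372 to 0.993), and their 95% intervals (normal, from the SE) were narrow. They ran from -0.12 to 0.18 for Chchd2, from -0.05 to 0.28 for Chchd3, from -0.21 to 0.20 for Chchd4 and from -0.09 to 0.23 for Immt.

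On chow, 1 of 5 was called as well, but it was Chchd3, against 3.23% of the 14629 genes tested. Chchd3 encodes a MICOS subunit that is attached to the inner membrane and binds the product of Immt. Its level was 77.0 to 114 CPM in WT (median 110, n = 7) and 135 to 180 CPM in KI mice (median 147, n = 6), with no overlap. The log2 fold change was 0.56 (SE 0.101, 1.47-fold, edgeR adjusted p = 0.00372). The call was lost without WT mouse 2 and without the lymphocyte-rich KI mice 1 and 3 (0.52, edgeR adjusted p = 0.0168). Chchd4 had a log2 fold change of 0.28 (SE 0.120), Chchd6 of 0.19 (SE 0.159), Immt of 0.18 (SE 0.0905) and Chchd2 of 0.17 (SE 0.120), all positive and none past the test (edgeR adjusted p = 0.171 to 0.498). Without KI mouse 1 Chchd4 stood at 0.18 and Chchd2 at 0.10, and without KI mouse 6 Chchd6 stood at 0.10.

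In BAT, Chchd4, the import receptor for twin-cysteine proteins, was the 1 member outside the Chchd10 locus to be called. It rose from 48.4 to 66.7 CPM in WT (median 60.5) to 72.5 to 113 CPM in KI mice (median 88.6, n = 6 each), with no overlap, by 0.56 on the log2 scale (SE 0.112, 1.48-fold, edgeR adjusted p = 0.00706). The call lay close to the threshold, since Chchd4 stayed called in 3 of 12 fits that left out 1 mouse, with log2 fold changes of 0.50 to 0.61, and lost it without the muscle-rich libraries (0.56, edgeR adjusted p = 0.0349). Chchd3 had a log2 fold change of 0.29 (SE 0.131), Immt of 0.16 (SE 0.136), Chchd2 of 0.14 (SE 0.128) and Chchd6 of 0.13 (SE 0.159), with edgeR adjusted p = 0.176 to 0.670. The last 3 moved with single libraries, to 0.07 for Immt without WT mouse 2, 0.08 for Chchd2 without KI mouse 5 and 0.03 for Chchd6 without KI mouse 3. Without the muscle-rich libraries Immt stood at 0.02 and Chchd6 at 0.02. Chchd2, the paralogue of Chchd10, was thus called in none of the 3 KI comparisons by edgeR, with log2 fold changes of 0.03 to 0.17 and an upper end of its intervals at 0.40. Unadjusted p was below 0.05 in 5426, 3560 and 3242 of all genes in the 3 tables.

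**Figure D4:**
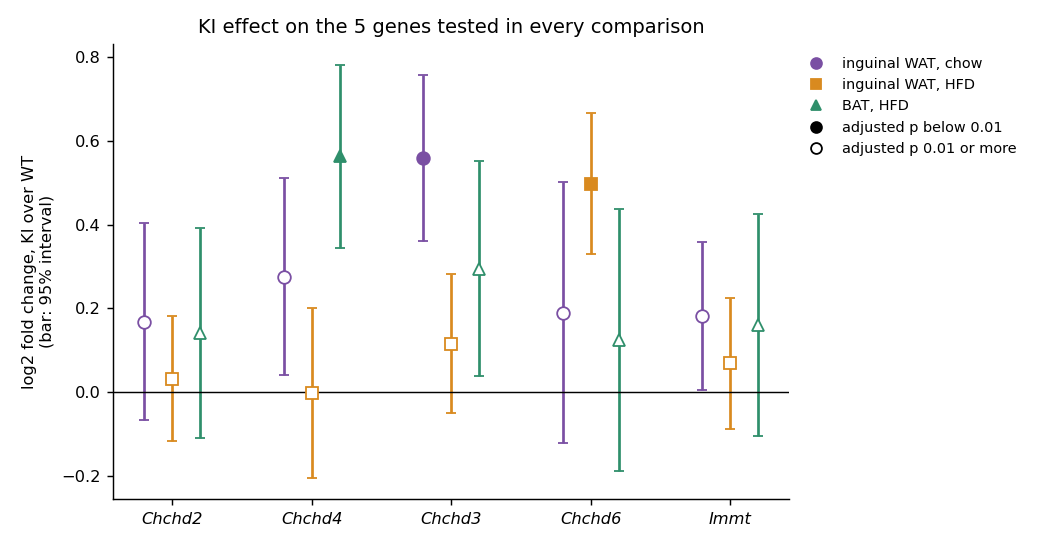
Log2 fold change of KI over WT mice for the 5 members outside the Chchd10 locus, in inguinal WAT on chow (purple circles), on HFD (orange squares) and in BAT (green triangles). Bars are 95% intervals, and filled symbols are called at an adjusted p below 0.01: Chchd6 on HFD (0.50), Chchd3 on chow (0.56) and Chchd4 in BAT (0.56).

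A different member was called in each table, but the differences between tables were not themselves called. In the test of the difference between diets, 0 of 5 members passed by edgeR or DESeq2, against 0.632% of the 17400 genes tested by edgeR. An unadjusted p below 0.05 was found for 1 of the 5 (Chchd3) and for 2927 of all genes. The effect on HFD minus that on chow was 0.32 for Chchd6 (SE 0.185, edgeR adjusted p = 0.399) and -0.43 for Chchd3 (SE 0.138, edgeR adjusted p = 0.0884). In the test of the difference between tissues on HFD, 0 of 5 passed by edgeR, against 2.82% of the 17214 genes tested. An unadjusted p below 0.05 was found for 1 of the 5 (Chchd4) and for 3794 of all genes. Chchd4 came nearest, with an effect in BAT minus that in inguinal WAT of 0.61 (SE 0.150, edgeR adjusted p = 0.0113), and DESeq2 called it. The same differences for Chchd10, given as a description, were -2.15 between diets (SE 0.362) and -1.56 between tissues (SE 0.275), and for Gm867 they were -2.32 (SE 0.450) and -1.16 (SE 0.266). For Mmp11 they were -2.18 (SE 0.352) and -0.82 (SE 0.273).

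Each of the 5 members outside the Chchd10 locus was higher in BAT than in inguinal WAT of WT mice on HFD (5 of 5 called by edgeR, against 55.9% of the 17214 genes tested in 1 direction or the other). Tissue and table cannot be told apart, since each tissue was deposited in a table of its own. The log2 difference was 2.71 for Chchd4 (SE 0.108), 2.10 for Chchd2 (SE 0.101), 2.04 for Chchd3 (SE 0.107) and 1.85 for Immt (SE 0.109), and Chchd6 differed least (1.07, SE 0.129, edgeR adjusted p = 1.75e-08). As a description, since the WT inguinal mice also served to choose them, Chchd10 differed by 5.28 (SE 0.218, 38.9-fold) and Gm867 by 4.69 (SE 0.206). Mmp11 was 21.7-fold higher in BAT (log2 difference 4.44, SE 0.211), whereas Smarcb1 differed by 0.21 (SE 0.0947, edgeR adjusted p = 0.0550). In levels, Immt stood at 401 to 730 CPM in WT BAT and 151 to 200 CPM in WT inguinal WAT on HFD, and Chchd2 at 1348 to 1683 CPM and 295 to 424 CPM.

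Between the diets, in WT inguinal WAT, 3 of 5 members were lower on HFD than on chow, against 28.2% of the 17400 genes tested, and diet cannot be told apart from table. Chchd4 fell by 1.16 on the log2 scale (SE 0.110, edgeR adjusted p = 3.01e-09), from 15.1 to 22.9 CPM on chow to 7.31 to 10.9 CPM on HFD. Chchd2 fell by 0.89 (SE 0.0963, edgeR adjusted p = 2.79e-08), from 508 to 711 CPM to 295 to 424 CPM. Chchd6 fell by 0.80 (SE 0.128, edgeR adjusted p = 1.20e-05), with ranges of 38.9 to 86.0 CPM and 30.7 to 44.9 CPM that overlapped. Chchd3 (-0.12, SE 0.0956) and Immt (0.03, SE 0.0887) did not pass the test. Among the 3 MICOS members, Chchd6 was thus the one called between diets in WT mice. KI mice on HFD (39.3 to 58.0 CPM) overlapped the WT range on chow, as WT mice on HFD did. The low end of that range was WT chow mouse 4, with the other chow WT mice at 53.6 to 86.0 CPM. As a description, the log2 difference was 0.30 for Chchd10 (SE 0.252) and 0.40 for Gm867 (SE 0.333), and single chow mice moved both. For Chchd10 it was 0.16 without WT mouse 3, and for Gm867 it was 0.90 without WT mouse 4, which had the highest Gm867 of its group.

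The wider pathway was followed in 3 lists. Of 13 genes of the cristae junction complex and its outer membrane partners, which include the members Immt, Chchd3 and Chchd6, 11 had counts. On HFD, 3 of these 11 rose in KI inguinal WAT (6.21% of all genes tested rose), led by Samm50, the core of the outer membrane assembly machinery (0.54, SE 0.0748, edgeR adjusted p = 3.93e-05), then Chchd6 and Dnajc11 (0.25, SE 0.0493). On chow 1 of 11 rose (Chchd3, against 1.96% of all genes), and in BAT 1 of 11 (against 1.36%), namely Mtx1 (a metaxin of the outer membrane, 0.47, SE 0.0923, edgeR adjusted p = 0.00647). No gene of this list was called lower by edgeR. Its median log2 fold change was 0.12 on HFD, 0.13 on chow and 0.29 in BAT, against 0.01, -0.01 and -0.01 over all genes tested.

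The list of 27 other twin-cysteine proteins and parts of their import includes the member Chchd4. It had 1 gene lower on HFD, 1 higher on chow and 2 higher in BAT (Timm10 and Chchd4 itself). These are shares near or under those of all genes called on HFD (11.5%) and on chow (3.23%), while 1.83% of all genes were called in BAT. On HFD Cmc2, which takes part in cytochrome c oxidase assembly, fell by 0.70 (SE 0.151, edgeR adjusted p = 0.00273). Timm10, a small chaperone that escorts inner membrane proteins, rose on chow (0.55, SE 0.112, edgeR adjusted p = 0.00738) and in BAT (0.79, SE 0.130, edgeR adjusted p = 0.00184). The medians were 0.03, 0.24 and 0.29 on HFD, on chow and in BAT, and 17, 22 and 23 of the 27 log2 fold changes were positive. Of 12 genes that shape the inner membrane and cristae, Tmem11 and Stoml2 rose on HFD (0.29, SE 0.0732, and 0.25, SE 0.0546), and Letm1, of mitochondrial cation exchange, fell by 0.29 (SE 0.0767, edgeR adjusted p = 0.00996), so that 3 of 12 were called against 11.5% of all genes. In BAT 1 of 12 was called, Tmem11, which rose (0.62, SE 0.119, edgeR adjusted p = 0.00589), and on chow 0 of 12 were called by edgeR (7 with an unadjusted p below 0.05, 2 called by DESeq2). The medians were 0.02, 0.25 and 0.16. The largest rise in the 3 lists was that of Timm10 in BAT (0.79), which stood below the 1.01 of Chchd10 in the same samples.

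**Figure D5:**
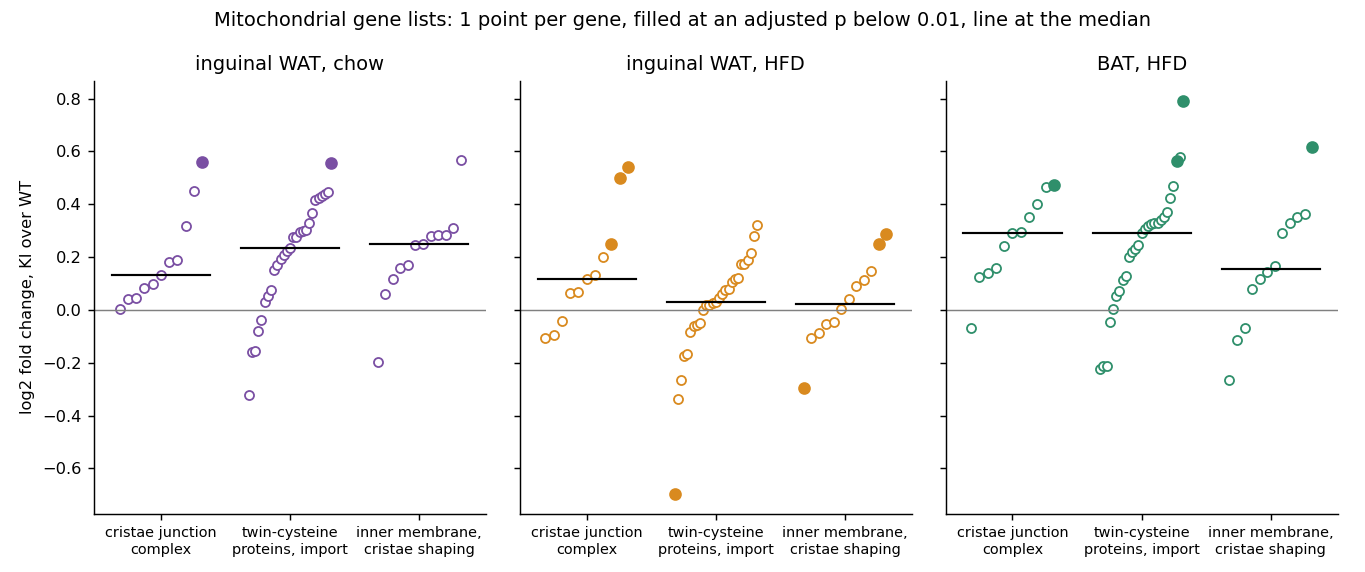
Log2 fold change of KI over WT mice for the 11, 27 and 12 measured genes of 3 mitochondrial lists, in inguinal WAT on chow, on HFD and in BAT, 1 point per gene, with filled points called at an adjusted p below 0.01 and a line at the list median. All values lie between -0.70 and 0.79, and 2, 7 and 4 points are filled in the 3 panels.

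Among the 13033 genes that passed the filter in all tables, Mmp11 was the gene most like Chchd10 over the 41 samples (Pearson r = 0.994 of log2 CPM), and Gm867 the next (r = 0.983). Ddo, a peroxisomal D-aspartate oxidase (r = 0.952), Hspa9, the matrix chaperone mortalin (0.948), Gm13068 (0.947) with Slc25a33, a mitochondrial nucleotide carrier whose span it lies in (0.943), Mif, a cytokine gene at chr10:75859353-75860240 (0.942), and Lonp1, a matrix protease (0.941), made up the 8. These values rest on differences between tissues and genotypes that the samples of a group share. After the 6 group means had been taken out, Mmp11 still ranked first (r = 0.910), followed by Slc25a39 (0.743), which encodes a mitochondrial glutathione carrier, Rce1 (0.703), Psmb5 (0.685), Cox8b (0.682), Emc6 (0.679), Coasy (0.675) and Pcx (0.674). Gm867 ranked 64 there (r = 0.563), with Chchd4 at 556 (0.403), Chchd2 at 807 (0.367), Chchd6 at 4631 (0.0921), Chchd3 at 5689 (0.0441) and Immt at 6664 (-0.00148). Within groups, then, the count of Chchd10 in a mouse went with that of Mmp11, and hardly with those of the MICOS subunits. Exons of Mmp11 and Gm867 overlap those of Chchd10, so their likeness to Chchd10 may hold shared reads, which was not tested. Of the windows searched for these genes, Chchd10 alone held TGATGCAA, with none searched for Chchd2, Gm13068, Hspa9 and Coasy. The Chchd10 sequence had been seen before that search, so nothing is read from this.

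Chchd2-ps, a processed pseudogene of Chchd2 on chromosome 4 (148068031 to 148068492), had 1 to 23 counts in a sample, against at least 5948 for Chchd2, and no other annotated gene carried a member's symbol followed by -ps.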

How the data were processed

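Bulk RNA of inguinal WAT and BAT was sequenced by the authors (polyA libraries from a TruSeq kit, paired reads of 150 bases on a NovaSeq). Per the labels and the methods, reads were trimmed with cutadapt, aligned with STAR to GRCm38 and counted per gene with featureCounts. Versions, annotation release and strand setting are not given in the sources used here. The deposited values are raw counts, in 1 table per tissue and diet (41 columns, 1 per mouse and tissue). For inguinal WAT on HFD, 2 technical libraries per mouse had already been merged into 1 column.

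Of 54838 entries per table, 1884 without length or counts were left out, and 99 repeated symbols had identical counts and were kept once (52853 genes). KI and WT mice were compared within a table with edgeR 4.0.16 in R 4.3.3 (TMM, filterByExpr, robust quasi-likelihood test), Benjamini-Hochberg adjustment over all genes tested and a threshold of 0.01. Differences between diets and tissues were tested as contrasts of the 4 groups concerned. Each SE was taken as the log2 fold change divided by the square root of its F value. CPM used a single TMM scaling over all samples. In a simulation that shifted 200 genes by a log2 value of 1.5, 89% were recovered for inguinal WAT on HFD (16471 genes), 79% on chow (14629) and 88.5% in BAT (13267). False calls made up 0%, 1.25% and 0.562%. Recovery of smaller changes, such as those of the members outside the Chchd10 locus, was not simulated.

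As alternatives, DESeq2 1.42.0 replaced edgeR, RLE replaced TMM, the low-count filter was dropped, mitochondrial transcripts were taken out, and a replicate block was added. Further ones were one fit of all 6 groups, a threshold of 0.05, summed counts of Chchd10 and Gm867, and each mouse left out. Leaving out libraries rich in muscle (over 1000 CPM) or lymphocyte markers (over 100 CPM) was added after seeing the data. Members and lists were chosen with earlier results of these data known. Named were all 7 members, the called gene of each list with the largest rise and fall per KI comparison, genes within 50 kb of Chchd10 and Gm867 that passed the filter, the 8 genes most correlated with Chchd10 over all samples (log2 CPM, prior count 2) and the 8 after group means were removed, and pseudogenes of members. One gene of these lists is not reported here. Dnajc11 and Stoml2 were added as further called genes of short lists. Markers of muscle (12 genes), brown and white adipocytes, macrophages, lymphocytes, endothelium, fibroblasts and epithelium were summed per mouse. Each mouse was taken as a separate replicate. Promoter windows came from RefSeq (GRCm38.p6) and gene structures from GENCODE vM21.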

Additional observations from a re-analysis of the deposited data

Results flagged for a closer look

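Of 42 groups of values (7 genes in 6 groups of mice), 6 held a mouse far from the others by Dixon's test, which chance does in about 1 in 20 groups. In inguinal WAT of KI mice on chow, mouse 1 stood above the rest in Chchd10 (2224 CPM, the others at 603 to 1004), in Gm867 (253 CPM) and in Chchd4 (33.3 CPM). Its sum of brown adipocyte markers, 1125 CPM, was also the highest of its group. In WT mice on chow, mouse 4 had the highest Gm867 (11.8 CPM) and the lowest Chchd3 (77.0 CPM) of its group. On HFD, KI mouse 1 had the highest Chchd3 of KI inguinal WAT (128 CPM).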

How the results depend on the processing

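All listed alternatives were run. The number of members called kept within 1.5 times its value under all alternatives in inguinal WAT on HFD, between diets, and in both comparisons within WT mice. On chow it fell from 1 (Chchd3) to 0 with a replicate block and without the lymphocyte-rich libraries, and ranged from 0 to 1 over the fits without 1 mouse each (0 without WT mouse 2). In BAT it fell from 3 to 1 without the muscle-rich libraries, which left Chchd10, at fewer mice per group. For the difference between tissues it rose from 0 to 1 (Chchd4) with DESeq2 and at a threshold of 0.05, and ranged from 0 to 1 over the fits without 1 mouse each. The replicate block rests on mouse numbers, which the labels do not tie to a pairing. Deviations of equally numbered WT and KI mice from their group means correlated at -0.26 to 0.72 on HFD, with 1 of 8 pairs over 0.1. They correlated at -0.33 to 0.18 on chow (2 of 6) and at -0.08 to 0.42 in BAT (3 of 6). The 0.72 was that of mouse 2, of which both libraries were rich in lymphocyte markers. These values show no uniform pairing by number but cannot exclude one. With the replicate block 1 member stayed called on HFD and 3 in BAT. Values close to 0 changed sign. In inguinal WAT on HFD, Chchd4 (-0.00197) became 0.0049 without the low-count filter, 0.0109 with the replicate block, 0.00474 without the muscle-rich libraries and -0.0470 to 0.0384 without 1 mouse each, and Chchd2 became -0.00673 to 0.0728 without 1 mouse each. Immt became -0.0110 in the difference between tissues without the muscle-rich libraries and, between diets in WT mice, -0.0235 to 0.0623 without 1 mouse each. The cause was not tested. With Spearman in place of Pearson, 4 of the 8 genes most like Chchd10 over all samples and 5 of the 8 within groups were the same genes. Depth limits Gm867 in WT inguinal WAT, where the lowest library held 23 counts on chow and 75 on HFD.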

Other observations

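In WT mice on HFD, the wider mitochondrial lists differed between tissues as the members did. All 11 measured genes of the cristae junction complex were higher in BAT than in inguinal WAT by edgeR's quasi-likelihood test, from 0.76 on the log2 scale for Mtx3 to 3.01 for Apoo, an apolipoprotein-related MICOS subunit. The same held for 25 of 27 twin-cysteine and import genes, led by Uqcrh, the hinge subunit of respiratory complex III (3.65), and for 11 of 12 genes that shape the inner membrane, led by Atp5k, the subunit e of ATP synthase that helps its dimers form (4.16). For comparison, BAT was higher for 26.9% and lower for 29% of all genes tested.

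Between the diets, genes of these lists were mostly lower on HFD in WT inguinal WAT, with 5 of 11, 14 of 27 and 6 of 12 called lower and 0, 1 and 1 called higher. Timm13, a small chaperone of the intermembrane space, fell by 1.70 on the log2 scale and Atp5k by 1.73, while Coa5 (0.60) and Yme1l1 (0.32) were higher. For comparison, 15.2% of all genes tested were lower and 13.1% higher on HFD. Diet and tissue cannot be told apart from the table they were deposited in.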
